A study of Rattus norvegicus with 35 samples.

Results

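The genes that encode the mitochondrial respiratory chain and the ATP synthase were examined in neonatal rat cardiac cells on 35 RG_U34A arrays (Affymetrix GeneChips), 1 for each RNA sample. The members were all probe-sets with a single gene symbol beginning with Nduf, Sdh, Uqcr, Cyc, Cox4 to Cox8 or Atp5. These are 102 probe-sets for 56 of the 4736 genes with a single symbol, and each gene was represented by its brightest probe-set. By symbol, 25 members belong to complex I, 1 (Sdha) to complex II, 4 to complex III, 11 to complex IV and 9 to complex V, the ATP synthase. Ndufa4 is counted by its name with complex I, although its protein is now placed in complex IV. The other 6 (Atp5if1, Cox6c-ps1, Cox7a2l, Ndufa4l2, Ndufaf3 and Sdhaf2) are an inhibitor, a pseudogene, assembly or supercomplex factors and a paralogue, and are called other members below. A further 7 probe-sets carry several symbols of which 1 would qualify, and these were left out.

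The respiratory chain passes electrons from NADH (complex I) and succinate (complex II) through ubiquinone, complex III and cytochrome c to oxygen at complex IV, and pumps protons across the inner mitochondrial membrane. Complex V uses the resulting gradient to make ATP. Beating cardiac myocytes are among the cells richest in mitochondria, and some complex IV subunits exist in a form found throughout the body and a form found in heart and skeletal muscle.

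Cells came from the ventricles of neonatal rat hearts. Cultures enriched for cardiac myocytes by pre-plating (CM) and cultures of cardiac fibroblasts (FB) were each exposed to 1 of 3 stressors or kept as controls. CM were kept in horse serum, whereas FB were subcultured in foetal bovine serum and used after a longer time in culture. The controls were sham-irradiated for IR and sham-treated for UV, where medium was taken off and cells were rinsed as for the exposed cells, and for MS they grew on the same plates without stretch. Cells called untreated below are these controls. Mechanical stress (MS) was 24 h of cyclic stretch on flexible plates coated with collagen type I, ionising radiation (IR) was 8.5 Gy of X-rays, and UV was 10 J/m2 of UVC, with RNA taken 24 h after IR or UV. For IR and UV, the CM samples are CM-enriched fractions obtained by centrifugal elutriation after the exposure, whereas for MS they are whole enriched cultures. FB were not elutriated. Serum, time in culture, subculture and, for IR and UV, elutriation thus cannot be told apart from the population. Each of the 12 groups has 3 arrays, except the CM controls of the UV experiment with 2, and CM UV array 3 therefore has no control with its number and does not enter the blocked UV comparison. Whether numbered samples came from separate litters is not stated, so p-values measure the spread between these samples.

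The labels were set against marker genes. In untreated cells the 14 measured CM markers differed between CM and FB by a median of 2.00 (UV controls), 3.30 (IR controls) and 2.79 (MS controls) on the log2 scale, and the 12 fibroblast markers by -2.24, -1.11 and -0.45. The FB cultures still carried CM marker signal. The summed intensity of the 14 CM markers was 4060 to 26517 in FB controls against 45098 to 85782 in CM controls, and 0 of the 14 were at the floor on every array of any group. The CM cultures of the MS experiment carried fibroblast marker sums of 32646 to 38109, next to 36556 to 40966 in FB. Of 7 measured endothelial markers, 2, 4 and 2 were called higher in CM (UV, IR and MS controls), Kdr and Pecam1 in each, and 1, Edn1, was called lower in each, with list medians of 0.89, 2.20 and 1.39. The part of these other cells in the members' values was not tested. The paper measured the share of CM by flow cytometry of myosin. The share was lowest in the CM cultures of MS, where non-myocytes were a large part. It was higher in the IR fractions and highest in the UV fractions, and FB cultures were nearly all non-myocytes. In such bulk samples a difference in the share of a cell type and a difference in RNA per cell cannot be told apart.

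The members were bright. Their median signal was 9.96 on the log2 scale against 5.82 over all genes, and 1 member, Cox6c-ps1, was at the floor on any array (19 of 35). Values below are log2 signals after scaling and quantile normalization, and differences are log2 differences with the standard error of the limma fit. A member is called when its p adjusted over all 8740 probe-sets is under 0.05.

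Among the members that differed most between the populations were the muscle forms of complex IV subunits. Their upstream sequences are shown with that of the ubiquitous form Cox8a, so that both forms of subunit VIII can be set side by side. The 250 bases before each annotated start are given 5′ to 3′ on the gene's strand (RefSeq, GRCr8), at chr1:192219717-192219966 for Cox6a2, chr1:205408274-205408523 for Cox8b and chr1:213833624-213833873 for Cox8a, all on the minus strand. Capitals mark the searched words on either strand.
Cox6a2: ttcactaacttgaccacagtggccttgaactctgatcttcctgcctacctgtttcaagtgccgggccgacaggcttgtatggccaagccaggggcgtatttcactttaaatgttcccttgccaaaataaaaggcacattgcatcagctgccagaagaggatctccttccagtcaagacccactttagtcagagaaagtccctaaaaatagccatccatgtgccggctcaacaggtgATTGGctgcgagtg
Cox8b: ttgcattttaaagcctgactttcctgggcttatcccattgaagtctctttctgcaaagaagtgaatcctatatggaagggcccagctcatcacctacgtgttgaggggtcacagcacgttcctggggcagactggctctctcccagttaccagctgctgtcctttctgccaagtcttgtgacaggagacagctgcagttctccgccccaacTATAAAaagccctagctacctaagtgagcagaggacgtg
Cox8a: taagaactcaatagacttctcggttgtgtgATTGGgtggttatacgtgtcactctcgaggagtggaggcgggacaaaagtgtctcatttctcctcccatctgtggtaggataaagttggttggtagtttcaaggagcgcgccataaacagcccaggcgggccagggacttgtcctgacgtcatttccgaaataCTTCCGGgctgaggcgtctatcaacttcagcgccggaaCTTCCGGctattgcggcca
The words searched on both strands were the TATA box TATAAA, the box known as CCAAT, the core CCGGAAG bound by ETS factors including nuclear respiratory factor 2, and the words AAGATGGCG (YY1) and TCAAGGTCA (oestrogen-related receptors), besides the palindrome bound by nuclear respiratory factor 1, and none of these words lies within another. Cox8b held TATAAA at 39 bases before its start, and Cox8a held the ETS core at 57 and at 19 bases. Of the 56 members 47 had an entry. The ETS core was found in 9 of these (19.1%), next to 7.27% of all 33469 promoters and 10.6% of the 3871 promoters of genes on the array. TATAAA was found in 2 (4.26%, all promoters 12.9%), CCAAT in 17 (36.2%, all 34%), the YY1 word in 1 (2.13%, all 0.693%), the nuclear respiratory factor 1 word in 1 (2.13%, all 0.762%) and the oestrogen-related receptor word in 0 (all 0.388%). A match is a description of these letters only.

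In untreated cells most members were higher in CM than in FB. Of the 56 members, 38 were called higher and 1 lower in the UV controls, 36 and 1 in the IR controls, and 35 and 0 in the MS controls. Over all probe-sets, 11.2%, 12.4% and 10.5% were called higher, and 11.9%, 13.2% and 12.8% lower. The median difference of the members was 0.85 (UV controls), 0.92 (IR controls) and 0.75 (MS controls), whereas the median over all genes was 0.00 in each. A total of 27 members were called higher in all 3 control comparisons, 46 in at least 1, and 8 were called in neither direction in any. Such shared counts, also those by complex below, were not made over all probe-sets and describe the members only. Among other genes of similar brightness (a mean log2 signal over 8, a line chosen after the data were seen), 15.6%, 21.3% and 15.2% were called higher. Leaving out replicate 1 lowered the count in the UV controls to 25, with 1 CM control array remaining. Leaving out any 1 replicate gave counts of 29 to 35 called higher in the IR controls and 24 to 27 in the MS controls. All CM arrays of the IR controls and 1 of 2 in the UV controls were deposited on another intensity scale than the FB arrays. In the IR controls this cannot be told apart from the population, whereas the arrays of the MS controls share 1 scale.

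**Figure D1:**
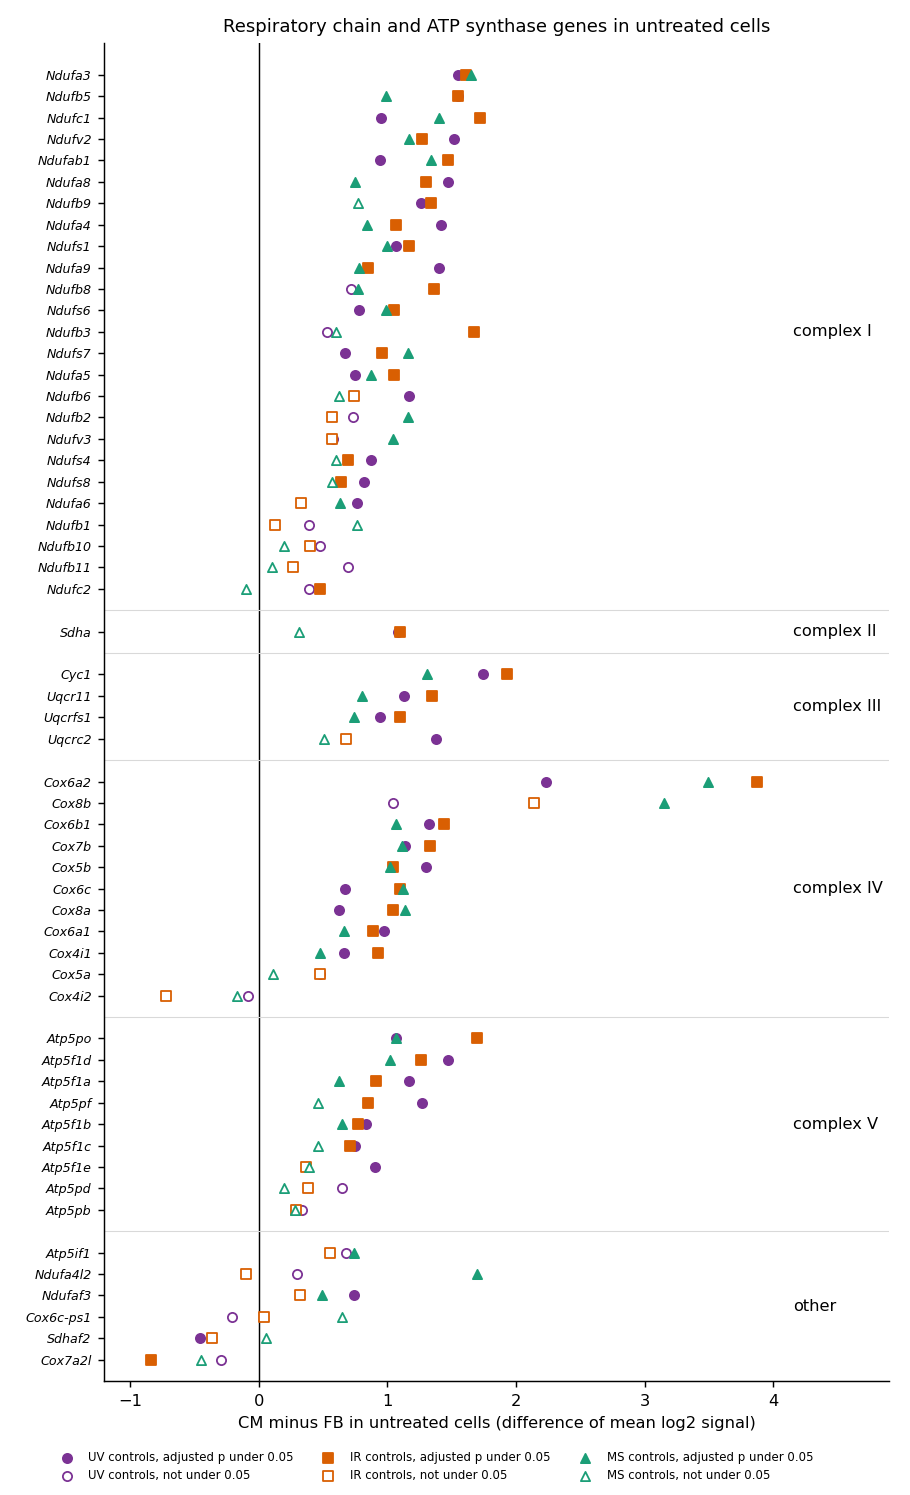
Difference between CM and FB in untreated cells for each of the 56 members, by complex, on the log2 scale. Each symbol is 1 control comparison (circles UV, squares IR, triangles MS), filled where adjusted p was under 0.05. Most symbols lie to the right of 0, with Cox6a2 and Cox8b farthest, and the other members at the bottom spread around 0.

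Members of all 5 complexes were among those called higher. Median differences for complex I were 0.82, 1.05 and 0.78 (UV, IR and MS controls), and 12 of its 25 members were called higher in all 3. For complex III they were 1.26, 1.22 and 0.77, with 3 of 4 called in all 3. For complex IV they were 0.97, 1.04 and 1.07, with 8 of 11. For complex V they were 0.90, 0.77 and 0.46, with 4 of 9. The only measured subunit of complex II, the flavoprotein Sdha, was higher by 1.08 (SE 0.21) in the UV controls and 1.10 (SE 0.19) in the IR controls, but its difference of 0.31 (SE 0.19, adjusted p = 0.269) was not called in the MS controls. There the CM arrays were at 10.62, 9.70 and 9.85 and the FB arrays at 9.55, 10.11 and 9.58, so that the groups overlapped, and without replicate 1 the difference was -0.07. Of the 6 other members, 0 were called higher in all 3, and their medians were 0.04, -0.03 and 0.57. Whether the complexes differ from each other was not tested.

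Cox6a2, the heart and muscle form of subunit VIa, gave the largest difference. Its signal was 12.37 and 12.67 on the CM arrays of the UV controls against 10.40, 10.34 and 10.14 in FB. In the IR controls it was 12.69, 12.71 and 12.60 in CM against 9.41, 7.64 and 9.34 in FB. In the MS controls it was 12.07, 12.19 and 12.05 against 8.38, 9.69 and 7.76. CM and FB did not overlap in any of these, and the FB arrays of IR and MS were far more spread than those of CM. The difference was 2.23 (SE 0.56, adjusted p = 0.00466), 3.87 (SE 0.50, adjusted p = 2.43e-06) and 3.49 (SE 0.50, adjusted p = 1.95e-05), or 4.68-, 14.6- and 11.3-fold. In the UV controls the call was lost without replicate 1 (2.43), which leaves 1 CM control array. In the MS and IR controls the spread in FB moved with the CM markers. The 3 FB arrays of the MS controls had summed CM marker intensities of 8794, 23882 and 4060, in the same order as their Cox6a2 signal, and those of the IR controls 17715, 6708 and 13420, again in the same order. In the UV controls the sums were 26375, 23807 and 26517, and the FB array with the highest sum had the lowest Cox6a2 signal. The part of CM remaining in FB cultures in these values was not tested.

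Cox8b, the muscle form of subunit VIII, showed a similar pattern of levels with a larger error. It was at 9.90, 9.75 and 9.74 in the CM arrays of the MS controls and at 6.81, 8.25 and 4.87 in FB, a difference of 3.15 (SE 0.82, adjusted p = 0.00671). This call was lost without replicate 1 or 3 (3.18 and 2.30). In the IR controls the difference was 2.14 (SE 0.82, adjusted p = 0.0575) and in the UV controls 1.04 (SE 0.92, adjusted p = 0.509), neither past the threshold. The FB arrays again kept the order of their CM marker sums in MS and IR. In the UV controls, at 8.74, 8.76 and 8.55, they did not.

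The ubiquitous partners differed less and with a smaller spread. Cox8a was higher in CM by 0.62 (SE 0.10), 1.04 (SE 0.09) and 1.14 (SE 0.09), with arrays at 12.83, 12.74 and 12.76 in CM against 11.91, 11.67 and 11.62 in FB for the IR controls. Cox6a1 was higher by 0.97 (SE 0.15), 0.89 (SE 0.14) and 0.66 (SE 0.14), and Cox4i1 by 0.66 (SE 0.14), 0.93 (SE 0.12) and 0.48 (SE 0.12), all called. The calls of Cox4i1 were lost without replicate 2 in the UV controls (0.68) and without replicate 3 in the MS controls (0.35). Cox4i2, the isoform best known from lung, was not called, at -0.08 (SE 0.50), -0.72 (SE 0.44) and -0.17 (SE 0.44), and its sign in the UV and MS controls turned when single replicates were left out. Of the remaining subunits in these isoform sets, Cox5b, Cox6b1 and Cox6c were called higher in all 3 comparisons, by 0.67 to 1.44, and the call of Cox6c in the UV controls was lost without replicate 1. Cox5a, whose only probe-set was dim (mean log2 signal 5.38), was called in 0 of 3, at 0.48 (SE 0.48), 0.48 (SE 0.43) and 0.11 (SE 0.43). For Cox7a1 and Cox7a2 no single-symbol probe-set was used.

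**Figure D2:**
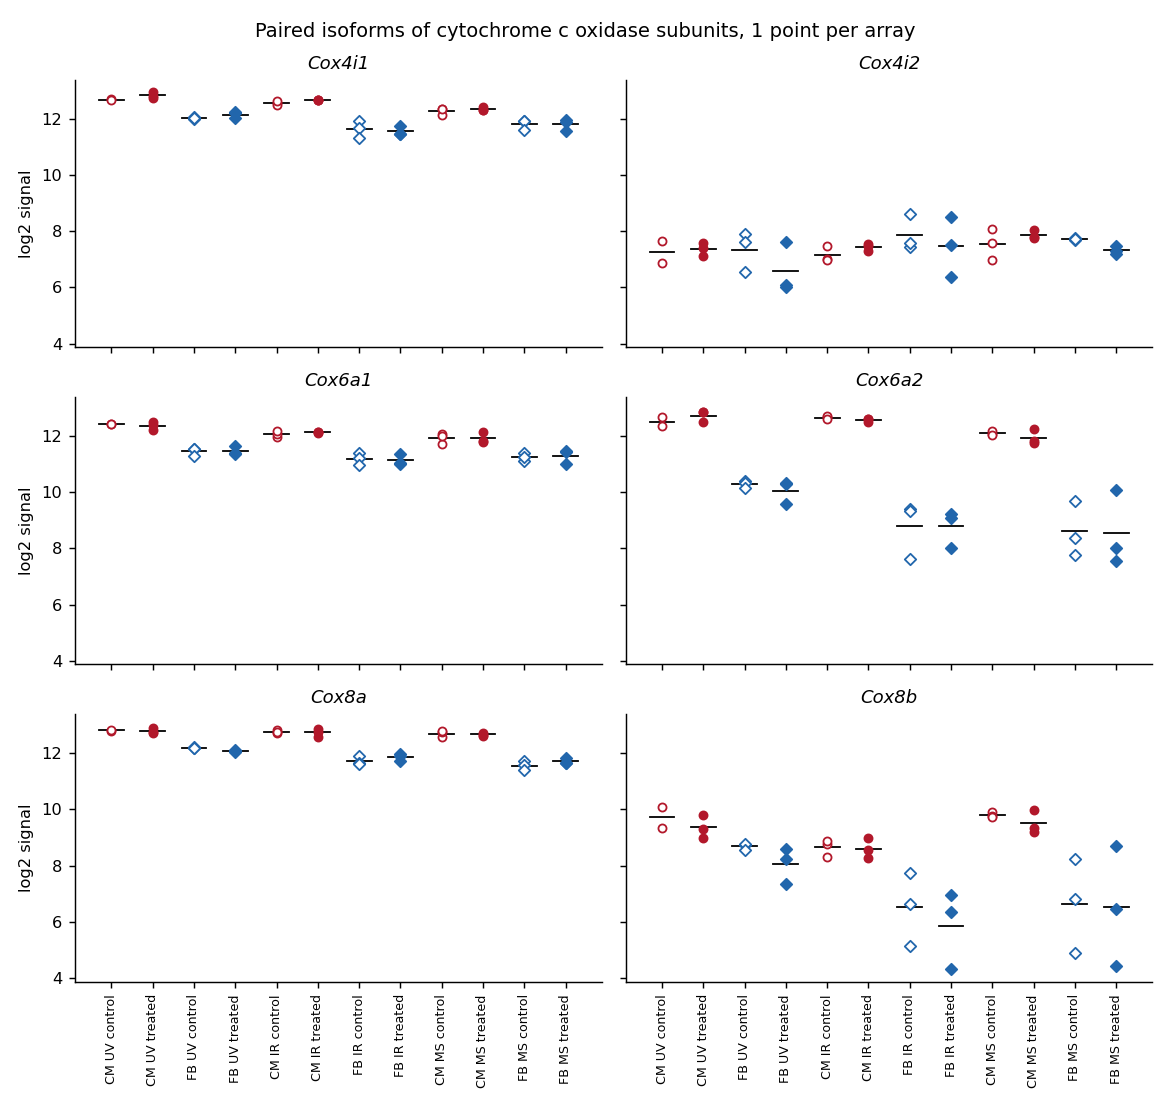
Log2 signal of 6 complex IV genes on each array in the 12 groups (red circles CM, blue diamonds FB, open untreated, filled treated, bars group means). Cox6a2 and Cox8b separate CM from FB most, with scattered FB arrays in IR and MS, while treated and untreated arrays of a population lie together.

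Outside complex IV the largest differences called in all 3 comparisons were those of Cyc1, Ndufa3, Ndufb5 and Ndufc1. Cyc1, the haem-carrying cytochrome c1 of complex III, was at 11.16, 11.49 and 11.43 in CM and 10.18, 8.76 and 9.35 in FB for the IR controls, with differences of 1.74 (SE 0.34), 1.93 (SE 0.31) and 1.31 (SE 0.31). Ndufa3, an accessory subunit of complex I, was higher by 1.55 (SE 0.26), 1.61 (SE 0.23) and 1.65 (SE 0.23), the most even of these. Ndufb5 and Ndufc1, accessory subunits of its membrane arm, were higher by 1.55, 1.55 and 0.99 and by 0.95, 1.72 and 1.40. The calls of Cyc1 (without replicate 3, 1.18) and of Ndufb5 (without replicate 2, 1.21) in the MS controls were lost when that replicate was left out.

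The members called lower in CM lay among the other members. Cox4i2 of complex IV, given above, lay below 0 in each comparison but was not called. Cox7a2l, which helps to join complexes III and IV into supercomplexes, was lower in CM by 0.84 in the IR controls (log2 difference -0.84, SE 0.20, adjusted p = 0.00259), with CM arrays at 10.31, 9.65 and 9.79 and FB arrays at 11.00, 10.81 and 10.46. This call was lost without replicate 2 (-0.67), and the differences of -0.29 (UV controls) and -0.45 (MS controls) were not called. Sdhaf2, an assembly factor of complex II, was lower in CM in the UV controls (-0.46, SE 0.16, adjusted p = 0.0405), a call lost without any 1 of the replicates. Ndufa4l2, a paralogue of Ndufa4, was called higher in the MS controls (1.70, SE 0.49, adjusted p = 0.0139), next to 0.30 and -0.10 in the UV and IR controls, not called. Sdhaf2 and Ndufa4l2 were picked for mention after their values were seen.

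Of the 28 members with several probe-sets, 21, 19 and 21 were called in the UV, IR and MS controls, and in 20, 19 and 19 of these the other probe-sets went in the same direction. The exceptions were Ndufaf3, whose called differences of 0.74 and 0.49 (UV and MS controls) stood beside 0.15 and -0.39 and beside -0.02 and -0.44 from its other probe-sets, and Ndufv3. For Ndufv3, which has 2 probe-sets, the brighter gave 0.58, 0.57 and 1.04, called higher in the MS controls, whereas the dimmer was called lower in all 3 (-2.13, -1.47 and -1.59). The direction of Ndufv3 is uncertain.

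Neighbouring mitochondrial genes differed in the same direction. The first list held 12 measured genes of the citric acid cycle, pyruvate dehydrogenase and pyruvate carboxylase. Of these, 8, 7 and 5 were called higher in CM (UV, IR and MS controls) and 0 lower, with medians of 1.10, 0.72 and 0.40. Dlat, the acetyltransferase of pyruvate dehydrogenase, was higher by 1.32, 1.93 and 1.59, and Idh3g, a subunit of the NAD-dependent isocitrate dehydrogenase, by 1.41, 1.47 and 0.94. Of 16 carriers and related inner membrane genes, 8 were called higher in each comparison, and 1, 0 and 1 lower. These included the phosphate carrier Slc25a3 (0.92, 0.94 and 0.78), the heart ADP/ATP carrier Slc25a4 (0.57, 0.91 and 0.75) and the uncoupling protein homologue Ucp2 (2.07, 2.68 and 2.24).

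After UV, few members were called and nearly all of these were lower. In CM 1 member rose and 7 fell, 14.3% of the 56, next to 16.8% of all probe-sets (8.62% higher and 8.16% lower). In FB 0 rose and 7 fell, 12.5%, next to 22.9% of all probe-sets (11.7% higher and 11.2% lower). The share of members called was thus near to or below that of all probe-sets. It was below that of other genes of similar brightness in each direction. Of those, 17.6% were called lower and 15.6% higher in CM, and 22.9% and 22.6% in FB. Of the members, 12.5% were called lower and 1.79% higher in CM, and 12.5% and 0.0% in FB. The median change was -0.05 in CM and -0.21 in FB, where 42 of 56 members lay below 0 (75%, next to 47.8% of other genes of similar brightness). Of the 12 members called in either population 3 were called in both, Ndufs4, Ndufs7 and Ndufb5, which is 37.5% of the CM list and 42.9% of the FB list. The matching overlap over all probe-sets was not computed, so these shares describe the members only. The UV responses use the same control arrays as the comparison of untreated cells above.

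By complex, 6 of the 7 falls in CM and 4 of the 7 in FB were in complex I, which holds 25 of the 56 members. These falls are 24.0% and 16.0% of complex I, next to 17.6% and 22.9% called lower among other genes of similar brightness. In CM the median change was -0.11 for complex I, 0.03 for complex III, 0.16 for complex IV and -0.14 for complex V. In FB it was -0.23, -0.12, -0.07 and -0.21, and complex IV had 0 called members. Sdha changed by -0.03 (SE 0.20) in CM and -0.09 (SE 0.17) in FB, neither called. The medians of numbered experiments were uneven. Over all members they were -0.12 and 0.00 in the 2 CM pairs, and -0.09, -0.52 and 0.01 in the 3 FB pairs.

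**Figure D3:**
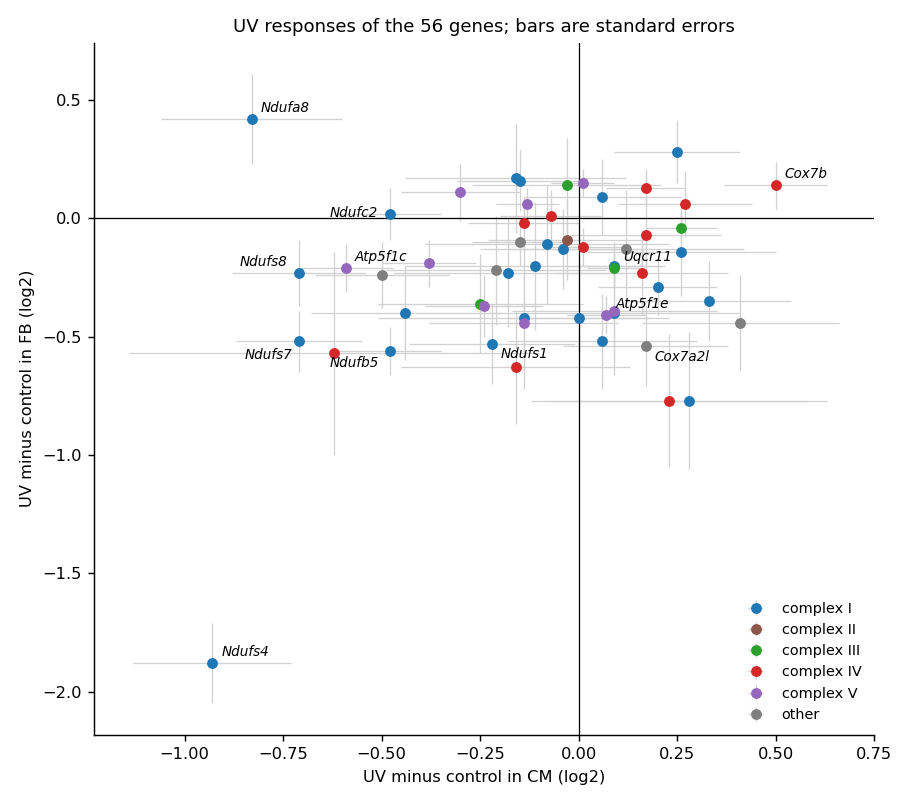
UV change (treated minus control, log2) of each member in CM (horizontal) and FB (vertical), coloured by complex, with standard errors and the names of members called in either population. Ndufs4 is lowest in both, Ndufa8 lies at upper left, and most other points are within 0.5 of 0 in CM.

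Ndufs4, an accessory subunit of complex I that is needed for its assembly and activity, showed the largest fall in both populations. In CM it was at 9.97 and 9.75 in controls and at 8.90, 8.96 and 8.16 after UV, and in FB at 9.26, 8.82 and 8.88 in controls and at 7.63, 6.48 and 7.20 after UV. Treated and control arrays did not overlap in either population. It fell by 0.93 on the log2 scale in CM (log2 change -0.93, SE 0.20, adjusted p = 0.00736), or 1.91-fold, and by 1.88 in FB (-1.88, SE 0.17, adjusted p = 4.48e-06), or 3.69-fold. The call in FB held under all 10 alternative settings, and that in CM was lost without replicate 1 (-0.79). The difference between the populations, 0.95 (SE 0.26, adjusted p = 0.0519), just missed the threshold. A second probe-set for Ndufs4 gave -0.90 and -1.60, both called, and the dimmest, near the floor at a mean of 2.99, gave 0.49 and 0.07, not called.

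Ndufb5 and Ndufs7 also fell in both. Ndufb5 was at 10.70 and 10.46 in CM controls and at 10.07, 10.13 and 9.64 after UV (-0.48, SE 0.13, adjusted p = 0.0219), and at 9.03, 9.15 and 8.91 and then 8.56, 8.54 and 8.31 in FB (-0.56, SE 0.10, adjusted p = 0.00157). Its groups did not overlap, and its other probe-set fell by 0.87 in CM and by 0.58 in FB. Ndufs7, an iron-sulphur subunit next to the ubiquinone site, fell by 0.71 in CM (SE 0.16, adjusted p = 0.0100) and by 0.52 in FB (SE 0.13, adjusted p = 0.0112). Of 10 alternative settings, the call of Ndufb5 was lost under 3 in CM and 2 in FB. That of Ndufs7 was lost under 1 in CM and 2 in FB.

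The remaining calls were in 1 population each. In CM the iron-sulphur subunit Ndufs8 fell by 0.71 (SE 0.17, adjusted p = 0.0145), from 10.23 and 10.03 to 9.24, 9.61 and 9.40, with changes of -0.69, -0.76 and -0.28 from its other 3 probe-sets. Atp5f1c, the gamma subunit of the rotating stalk of ATP synthase, fell by 0.59 (SE 0.12, adjusted p = 0.00458), and Ndufc2 by 0.48 (SE 0.13, adjusted p = 0.0233). The calls of Ndufs8 and Ndufc2 were each lost under 4 of 10 alternative settings, and that of Atp5f1c under 2. Cox7b, a small subunit of complex IV, was the only member called higher after UV, by 0.50 (SE 0.13, adjusted p = 0.0165) from 10.98 and 10.73 to 11.49 and 11.22 in the same experiments. Treated array 3, without a control of its number, lay lower at 10.66, and without the replicate block the change was 0.27 and not called.

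In FB Ndufs1, the largest iron-sulphur subunit of complex I, fell by 0.53 (SE 0.17, adjusted p = 0.0430), with pairs at 0.05, -0.84 and -0.82. Cox7a2l fell by 0.54 (SE 0.17, adjusted p = 0.0397), with pairs at -0.08, -1.28 and -0.27, so that pair 2 carried most of it, and the call was lost whichever replicate was left out. Uqcr11, the smallest subunit of complex III, fell by 0.21 (SE 0.06, adjusted p = 0.0202), a call lost under 7 of 10 alternative settings. Atp5f1e, the epsilon subunit of ATP synthase, fell by 0.41 (SE 0.08, adjusted p = 0.00213), from 10.30, 10.27 and 10.35 to 9.99, 9.80 and 9.90. The calls of Ndufs1 and Atp5f1e were lost under 3 and 2 of 10 alternative settings.

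**Figure D4:**
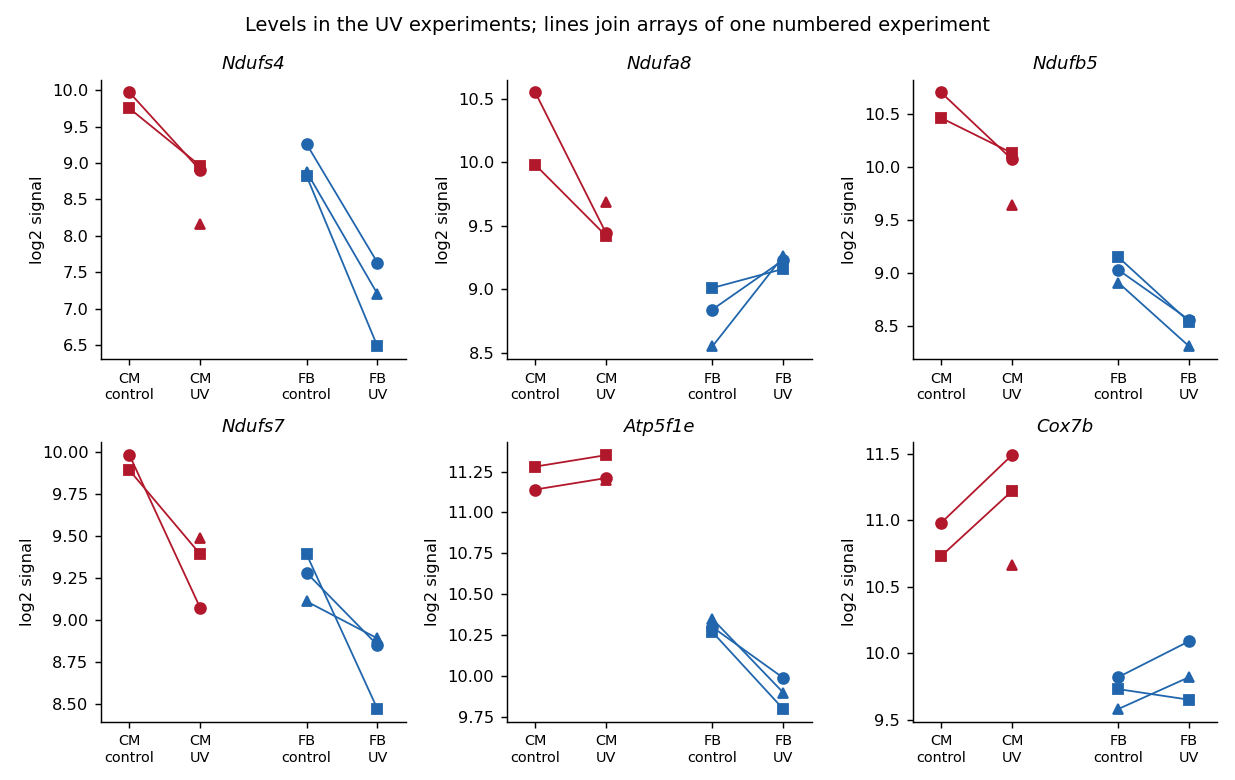
Log2 signal of 6 members on each array of the UV experiments (CM red, FB blue), with a scale of its own for each gene. Lines join the control and treated array of a numbered experiment (circle 1, square 2, triangle 3), and CM UV array 3 has no line because it has no control. Ndufs4, Ndufb5 and Ndufs7 go down in every pair of both populations, Ndufa8 goes down in CM and up in FB.

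The UV response itself differed between CM and FB for 2 members (3.57%, next to 6.35% of all probe-sets). Ndufa8, an accessory subunit of complex I, was at 10.55 and 9.98 in CM controls and at 9.44, 9.42 and 9.69 after UV, whereas in FB it was at 8.84, 9.01 and 8.55 and then at 9.23, 9.16 and 9.26. It fell in CM by 0.83 (SE 0.23, adjusted p = 0.0288), the FB change of 0.42 (SE 0.19, adjusted p = 0.154) was not called, and the difference of the responses was -1.25 (SE 0.30, adjusted p = 0.0300). For Atp5f1e the CM change was 0.07 (SE 0.10) and the difference of the responses 0.48 (SE 0.12, adjusted p = 0.0417). Both differences were lost under 1 or more left-out replicates, Ndufa8 without replicate 1 or 2 (-1.0 and -1.65) and Atp5f1e without any of the 3 (0.46 to 0.53).

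These UV values rest on few pairs. Without replicate 1 the CM response, then 1 pair, had 0 members called lower, and without replicate 1 or 2 it had 0 called higher. In FB 3 members were called lower without replicate 1 and 3 without replicate 2. Without the block for numbered experiments 3 members were called lower in CM and 2 in FB. Cell type markers and RNA quality moved with UV as well, and their part in the members' changes was not tested. Of the 14 CM markers 12 were called lower in FB after UV (median change -1.0) and 3 in CM (median -0.28). Of the 12 fibroblast markers 6 were called lower in CM (median -0.66) and 5 in FB (median -0.35), and of 5 smooth muscle markers 2 in CM (median -0.45) and 4 in FB (median -0.74). The summed intensity of the CM markers in FB went from between 23807 and 26517 to between 8408 and 13080. FB array 2 had the lowest sum after UV and also the lowest median change of the members. The 3′ to 5′ ratio of the beta-actin probe-sets was 1.49 to 1.52 after UV against 1.32 to 1.38 in FB controls, and 1.80 on CM UV array 1 against 1.18 on its control.

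After IR and MS 0 of 56 members were called in either population by limma. Over all probe-sets, 0.732% were called after IR in CM, 0.0801% after IR in FB and 0.0% after MS in either. At an unadjusted p under 0.05 there were 1 (CM IR), 4 (FB IR), 4 (CM MS) and 3 (FB MS) of 56 members. Over all 8740 probe-sets there were 993, 599, 414 and 468 in the same order. Changes of the members ranged from -0.33 to 0.34 (CM IR), -0.64 to 0.19 (FB IR), -0.47 to 0.31 (CM MS) and -0.50 to 0.68 (FB MS), with a median standard error of 0.16 in each. Changes of the size of Ndufs4 in FB after UV were not seen, whereas smaller changes may go undetected with this number of arrays.

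On CM IR array 3 after treatment the 3′ to 5′ ratios of beta-actin (2.33) and GAPDH (1.48) were the highest of the 35 arrays, next to 1.03 to 1.15 and 1.04 to 1.15 on the other CM arrays of the IR experiment. Some members stood apart in that pair, such as Ndufa9 (-0.20, -0.42 and 0.85 in the 3 pairs) and Cox5a (-0.20, -0.22 and 0.93), picked after their values were seen. By the scan records, treated array 3 was scanned apart from the other CM IR arrays, and its lot differed from that of control array 3. RNA quality, scan and lot thus cannot be told apart in pair 3. Without replicate 3, 0 members were called in CM after IR, and the median over the members was -0.06 in place of -0.02. The next highest beta-actin ratio, 2.05, was on FB control array 2 of the MS experiment. The other FB controls of MS were at 1.24 and 1.49, and the GAPDH ratio of array 2 was 1.03. This array enters the MS control comparison and pair 2 of FB MS. The part of RNA quality in the values of either experiment was not tested.

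By complex the medians after IR in CM were -0.02 (I), -0.07 (III), 0.00 (IV) and -0.04 (V), and in FB -0.19, -0.09, -0.16 and -0.14. In FB 45 of 56 members lay below 0 after IR (80.4%, next to 50.9% of other genes of similar brightness), 22 of 25 in complex I and 8 of 9 in complex V. The medians over all members were -0.22, -0.13 and -0.08 in the 3 FB pairs, and 0 of these members passed the test. After MS the medians were -0.06, 0.01, -0.05 and -0.04 in CM and 0.00, -0.06, -0.05 and 0.01 in FB. In CM 40 of 56 members were below 0 after MS (71.4%, next to 48.6%), but the pairs were at 0.08, 0.03 and -0.21, so that pair 3 decided this. Sdha changed by -0.14 (CM IR), 0.01 (FB IR), 0.22 (CM MS) and -0.28 (FB MS), each with SE 0.17.

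**Figure D5:**
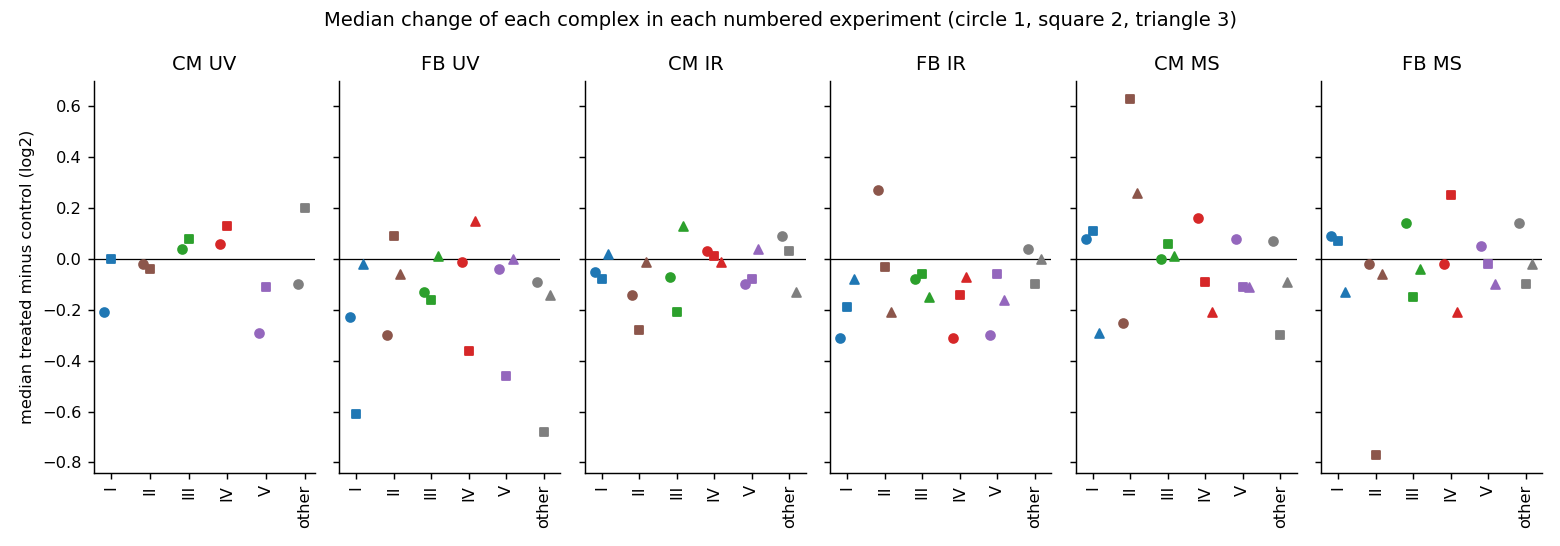
Median change (treated minus control, log2) over the members of each complex, for each numbered experiment (circle 1, square 2, triangle 3) in the 6 comparisons. Complex II is the single gene Sdha. The FB UV experiment 2 lies lowest for most complexes, and the medians of FB IR are mostly below 0.

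The member with the smallest p in each comparison was as follows. Uqcr11 in CM after IR was at 11.84, 12.30 and 11.88 in controls and 11.76, 12.09 and 11.68 after treatment (-0.16, SE 0.06, adjusted p = 0.301). Atp5pf, a peripheral stalk subunit of ATP synthase, in FB after IR was at 9.63, 9.34 and 9.14 and then 8.78, 9.0 and 9.19 (-0.38, SE 0.12, adjusted p = 0.496). Both sets of arrays overlapped. Ndufb8 in CM after MS was at 10.89, 11.01 and 11.09 and then 10.87, 10.54 and 10.72 (-0.29, SE 0.10, adjusted p = 1). Ndufb2 in FB after MS was at 9.86, 9.73 and 9.03 and then 10.22, 10.40 and 10.02, without overlap (0.68, SE 0.17, adjusted p = 0.592), higher in 3 of 3 pairs. The groups of Ndufb8 did not overlap either, but neither gene passed the correction. The response of CM minus that of FB was called for 0 members after IR (smallest p for Ndufb5, 0.38, SE 0.15, adjusted p = 0.496) and for 0 after MS (Ndufb2, -0.77, SE 0.24, adjusted p = 1), next to 0.0686% and 0.0% of all probe-sets.

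The neighbouring genes gave little more. Of the 12 genes of the citric acid cycle, pyruvate dehydrogenase and pyruvate carboxylase, 1 fell in CM after UV. This was the pyruvate carboxylase Pc (-2.17, SE 0.37, adjusted p = 0.0017 in limma). In FB 2 fell, Pc (-1.0, SE 0.30, adjusted p = 0.0297) and the mitochondrial isocitrate dehydrogenase Idh2 (-0.81, SE 0.14, adjusted p = 0.00105). Of the 16 carriers the ADP/ATP carrier Slc25a5 fell in both (-0.30, SE 0.08, in CM and -0.21, SE 0.07, in FB), while Ucp1 rose in CM (1.70, SE 0.41) and Phb2, a prohibitin of the inner membrane, rose in FB (0.33, SE 0.06). After IR and MS 0 genes of either list were called.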

How the data were processed

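Each of 35 RNA samples was hybridised to 1 RG_U34A array. The authors deposited linear signal intensities, 1 per probe-set. The study's methods name GeneChip software for scanning, then gcrma and VSN, which both give values on a log-like scale. The deposited values are linear with a set trimmed mean on each array, so they are not that final output, and the software that made them is not given in the sources used here. Their trimmed mean was 200.3 to 200.4 on 26 arrays and 1001.5 to 1001.7 on 9 (all CM IR arrays and CM UV control 2, treated 2 and treated 3).

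From these deposited intensities, each array was scaled to a common 75th percentile, values under the 20th percentile of all scaled values (6.88) were set to it, and log2 values were quantile normalized. After 59 control probe-sets were left out of 8799, 8740 were tested with limma 3.58.1 (R 4.3.3), two-sided, with a variance trend and Benjamini-Hochberg adjustment over all probe-sets at 0.05. Responses and their differences between CM and FB were fitted with a block for each numbered experiment of a population and stressor, leaving 11 residual degrees of freedom, because the study's own model included the experiment. The deviations of same-numbered arrays correlated with r of 0.06 to 0.80 over 17 pairs, over 0.1 in 14. Control CM minus FB differences came from group means (23 residual degrees of freedom). Each fit used all 35 arrays. These comparisons share their control arrays. The number of arrays limits the precision. The fits were tested on simulated data with known changes for FB UV, CM IR and the UV controls.

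Symbols came from the platform annotation. Of 8740 probe-sets, 7006 had 1 symbol, 308 several and 1426 none, and 6985 of the single symbols matched the RefSeq gene table (GRCr8). For each gene the probe-set with the highest mean was used. Members named with values were, per comparison, up to 4 called rises and 4 called falls of largest size (otherwise the smallest p), the 5 largest control differences called in all 3 comparisons, and the isoform sets. The few remaining members called after UV were added once their values were known. The members and lists were chosen with earlier results of these data known.

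Alternatives were a fit without the block, a random block, a block shared by CM and FB controls, scaling without quantile normalization, a floor at the 40th percentile, a pseudocount, a filter on dim probe-sets, all probe-sets of a gene, array lot and scan as blocks in CM IR, and leaving out each replicate number.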

Additional observations from a re-analysis of the deposited data

Results flagged for a closer look

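For Ndufa8 the UV response differed between the populations by -1.25 (CM minus FB, log2 scale, SE 0.30, adjusted p = 0.0300 in limma), with both CM pairs lower after UV and all 3 FB pairs higher. For Atp5f1e the difference was 0.48 (SE 0.12, adjusted p = 0.0417), with all 3 FB pairs lower and both CM pairs slightly higher. These calls were lost under 3 (Ndufa8) and 7 (Atp5f1e) of 10 alternative settings. They make up 3.57% of the members, next to 6.35% of all probe-sets. For Cox7a2l both CM pairs were higher (0.28 and 0.06) and all 3 FB pairs lower, but the tested difference of 0.72 (SE 0.27, adjusted p = 0.164) did not pass the threshold.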

How the results depend on the processing

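The deposited values allow few degrees of freedom, and with CM UV reduced to 1 pair or 1 control array the spread is taken from the other groups. Without the replicate block, CM UV had 0 members higher and 3 lower, with medians of -0.05 (complex II), -0.06 (III) and 0.11 (IV), FB UV had 2 lower, and 0 members were called higher and 0 lower for the UV response difference. With a random replicate block, CM UV had 0 higher (complex III -0.03) and the UV response difference 0 higher. With the replicate block shared by CM and FB controls, 0 members were lower in the UV controls. The pairing changed no other count or complex median beyond these. With scaling only, CM UV had 0 higher (complex II 0.00), the UV response difference 0 higher, UV controls 0 lower and IR controls 2 lower, and medians were 0.05 (CM IR, complex IV), -0.14 (FB IR, III), 1.0 (MS controls, III) and 0.66 (MS controls, other members). The pseudocount and the filter on dim probe-sets each gave 12 lower in FB UV and 0 lower in the UV controls, and the filter gave 2 higher for the UV response difference and medians of 0.30 and 0.49 for the other members in UV and MS controls. The higher floor gave 0.27 for the other members in MS controls. With all probe-sets of a gene, CM UV had 2 higher, UV and IR controls 2 lower each, and the other members in MS controls a median of 0.22. In CM IR, array lot as a block gave -0.07 (all members), -0.08 (I) and -0.28 (II), and scan as a block -0.03 (IV). The causes were not tested.

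Leaving out 1 replicate, CM UV had 0 to 1 higher and 0 to 5 lower, FB UV 3 to 5 lower, the UV response difference 0 to 1 higher and 0 to 1 lower, UV controls 25 to 34 higher and 0 lower, and IR controls 0 to 1 lower. Members called higher were 29 to 35 in the IR controls and 24 to 27 in the MS controls. CM UV medians ranged from 0.03 to 0.08 (III), 0.06 to 0.16 (IV), -0.29 to -0.11 (V) and -0.10 to 0.20 (other). FB UV complex III ranged from -0.15 to 0.00, CM IR complex IV from -0.03 to 0.01, FB IR other members from -0.06 to 0.12, CM MS complex III from -0.02 to 0.09 and FB MS complex I from -0.16 to 0.06. In the MS controls the ranges were 0.72 to 0.96 (I), 0.39 to 0.67 (V) and 0.45 to 0.67 (other), and in the UV controls -0.16 to 0.31 (other). Cox4i2 ranged from -0.88 to 0.59 in the UV controls, above 0 without replicate 1 (0.59) or 3 (0.04), and from -0.44 to 0.13 in the MS controls, above 0 without replicate 1, and the sign turned for Sdha in the MS controls without replicate 1 (-0.07), none of them called in the comparison as reported. Cox8b in the IR controls was called with the control block (2.14), the pseudocount (2.03) and the dim filter (2.14). Of the other values, 795 counts and medians and 595 member values kept their side of the threshold or stayed within the limits used, while 62 member values lost their call.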

Other observations

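Of 8 measured regulators of mitochondrial genes, 2 rose in CM and 4 in FB after UV, and 0 fell, next to 8.62% and 11.7% of all probe-sets called higher. The list was not tested as a group. Polg2, the accessory subunit of the mitochondrial DNA polymerase, rose by 3.17 in CM (SE 0.34, adjusted p = 6.74e-05 in limma) and by 1.91 in FB (SE 0.28, adjusted p = 2.67e-04). Myc rose in CM (1.24, SE 0.28, adjusted p = 0.00978), and its response was larger in CM than in FB by 1.84 (SE 0.36, adjusted p = 0.0111). Esrra, an oestrogen-related receptor that acts on genes of oxidative metabolism, rose in FB (0.56, SE 0.14, adjusted p = 0.00945).

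Of 6 kinases and small factors around the chain, the pyruvate dehydrogenase kinase Pdk2 was higher in CM in the UV, IR and MS controls (1.63, 1.31 and 0.88), while Pdk1 fell (-0.71, SE 0.18, adjusted p = 0.0119) and Higd2a rose (0.49, SE 0.10, adjusted p = 0.00288) in FB after UV. The 1 measured assembly factor outside the members, Nubpl, was lower in CM in the IR and MS controls (-2.38 and -1.80).

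Ndufs4, the member with the largest fall after UV, is also the member with the longest gene (110.0 kb in GRCr8, next to a median of 7.4 kb over the members). Across the 56 members, which are not independent, gene length and UV change had a Spearman's rho of -0.06 in CM and -0.02 in FB, and across 965 other genes of similar brightness -0.30 and -0.27.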
